A study of Mus musculus with 2 samples.

Results

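The genes described here are 47 that build or steer the growth cone, the motile tip of an extending axon, and the actin cytoskeleton beneath it. They were chosen by name, with earlier results of these data known. Each deposited gene whose Ensembl identifier carries a listed symbol in the GENCODE annotation was taken, with no filter on measured values. All 47 were found, of 43346 Ensembl genes in the tables. They fall into 10 roles: actins, actin monomer binders, cofilins with their kinase, membrane proteins of the growth cone, collapsin response mediator proteins (CRMP), filament binders, Ena/VASP proteins, the WAVE complex, the Arp2/3 complex, and small GTPases with their PAK kinases.

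Total RNA of whole midbrain was sequenced from healthy newborn mice at postnatal day 0, strain B6NTac;B6NCrl/Lap, with male and female animals pooled. There is 1 group, of 2 libraries: replicate 1 came from a pool of 15 mice and replicate 2 from a pool whose size the labels do not give. Both carry the same donor label, and the labels call them independent isolates of the tissue. With no second condition, nothing could be tested between groups, so levels, transcript forms and ratios between related genes are described, with the spread of the 2 libraries as their error (SD, n = 2 throughout).

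A growth cone advances where actin filaments assemble at its leading edge and are pulled back and taken apart behind it. Small GTPases set the rate of assembly: Rac drives the WAVE complex, which switches on the branch-forming Arp2/3 complex, while Cdc42 and Ena/VASP proteins favour unbranched filaments gathered into filopodia. Cofilins cut old filaments, and profilins, thymosins and cyclase-associated proteins hold, recharge and hand over the monomers. In newborn midbrain, neurons are still extending axons and forming contacts, and several of the genes, Gap43 foremost, are classical labels of that stage.

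Libraries held 46685706 estimated counts in replicate 1 and 72779229 in replicate 2. The labelled tissue was checked against its markers: all 5 midbrain genes listed (among them Otx2 at 18.3 and 15.9 TPM and En2 at 10.6 and 11.4 TPM in replicates 1 and 2) and all 5 genes of young neurons were detected. Markers of neighbouring tissue differed between the pools: the choroid plexus gene Ttr stood at 14.4 and 163 TPM, and the hindbrain gene Hoxa5 had 2 and 432 counts. TPM, a transcript level divided by transcript length and scaled to a common total, ran lower in replicate 2, with a median log2 ratio of replicate 2 over replicate 1 of -0.27 over detected protein-coding genes and -0.29 over the 47 genes.

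Growth cone and actin genes were all expressed, and most ranked near the top of the transcriptome. All 47 reached 1 TPM in both libraries, the threshold for a detected gene, against 53.8% of 21461 protein-coding genes. Of the 47, 42 reached 10 TPM and 14 reached 100 TPM in both libraries. Their median was 52.5 TPM in replicate 1 and 37.9 in replicate 2, a mean of 44.8, against a median of 7.3 over the 11539 detected protein-coding genes. The median gene of the 47 lay at percentile 93.8 of the detected protein-coding genes by mean TPM. Of the 47, 29 were in the top 10% and 3 (Wasf1, Wasf2 and Cap2) lay below the median of detected protein-coding genes. Together they made up 2.71% ± 0.0639 of all protein-coding TPM outside the mitochondrial genome, and the 5 highest (Actb, Actg1, Cfl1, Marcksl1 and Dpysl2) held 46.4% ± 0.763 of that. In bulk tissue, fewer cells of a type and less RNA per cell cannot be told apart, so a level here is an average over all cells of the midbrain.

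**Figure D1:**
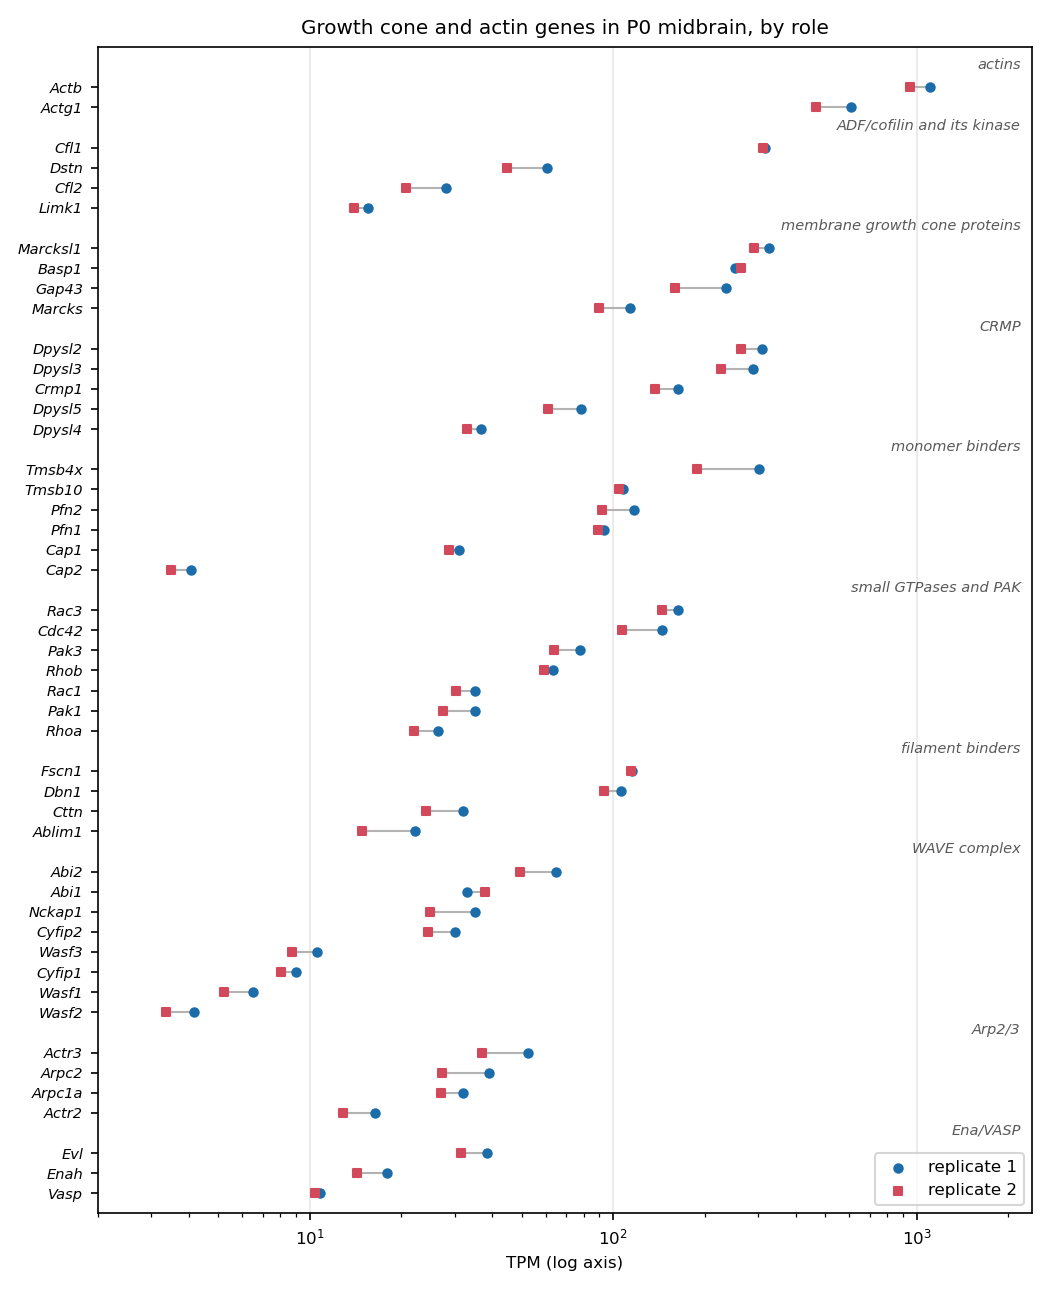
TPM of each of the 47 genes in replicate 1 (circles) and replicate 2 (squares), on a log axis, grouped by role and joined by a line. Actb lies highest in both libraries, Wasf2 and Cap2 lowest at 3 to 5 TPM, and 45 of the 47 lie further left in replicate 2.

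The order of the genes was coarse rather than exact. Along the order of mean TPM, 26 of 46 neighbouring pairs kept their order in both libraries. The ranges of the 2 libraries did not overlap in 8 neighbouring pairs: at the top of the order Actb stood clear of Actg1 and Actg1 of Cfl1, and at the bottom Wasf1 stood clear of Cyfip1 above it and of Cap2 beneath it. From Cfl1 in rank 3 down to Fscn1 in rank 13, every neighbouring pair overlapped. By rank among the 47, 41 genes moved by at most 2 places between the libraries and the largest move was 7 places, by Abi1.

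The actins, whose monomers polymerise into the filaments, were the 2 highest genes. Actb, beta-actin, stood at 1110.2 and 953 TPM in replicates 1 and 2, and Actg1, gamma-actin, at 607 and 465 TPM. Both are the actins of non-muscle cells, and their proteins differ almost only at the amino end. Actb was higher in both libraries, holding 65.9% ± 1.797 of the pair's TPM, a log2 ratio of 0.95 ± 0.12, computed like all ratios between genes on TPM + 0.1. Genes with sequences nearly identical to Actg1 held 2.83% and 3.72% as many counts, and reads could have been shared with them. That ratio lay just under 2-fold in replicate 1 (0.87) and just over it in replicate 2 (1.03), so it was not called; a ratio was called where it reached 2-fold in the same direction in each library. The coding sequences of the leading transcripts are 88.7% identical over 1128 bases. Their first 36 coding bases are shown because this stretch holds the codons for the differing amino end; 9 of the 36 bases, in capitals, differ (all sequences here are GENCODE M21 transcripts on GRCm38; minus strand, chr5:142905651-142905686 and chr11:120348056-120348091).
Actb: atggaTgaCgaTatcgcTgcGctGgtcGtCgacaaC
Actg1: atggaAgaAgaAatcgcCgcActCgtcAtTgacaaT

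The other actins, which are forms of muscle, were low. Acta2 and Actg2, of smooth muscle, averaged 1.64 ± 1.195 and 0.35 ± 0.0141 TPM, and Acta1 and Actc1, of skeletal and heart muscle, 3.38 ± 1.12 and 0.24 ± 0.339. Acta2 was uneven, at 2.48 and 0.79 TPM in replicates 1 and 2, and Actc1 had 0 and 81 counts. Beside them, the 5 listed genes of mural cells and smooth muscle summed to 20.9 and 14.6 TPM with 2 of 5 detected, and 4 of skeletal muscle to 3.07 and 5.93 TPM with 1 of 4 detected; each sum includes the actin of its list. The part of those cells in the muscle actin levels was not tested. Actb and Actg1 together reached 1567 ± 212 TPM, against 9008 ± 336 for 12 tubulin genes, which encode the microtubules of the axon shaft, a log2 ratio of actins over tubulins of -2.53 ± 0.14.

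Among the monomer binders, Tmsb4x was highest, Tmsb10 and both profilins lay close together, and Cap2 was, with Wasf2, at the bottom of all 47. Beta-thymosins are very short proteins that hold actin monomers out of filaments. Tmsb4x, X-linked, stood at 302 and 189 TPM in replicates 1 and 2, and Tmsb10 at 108 and 105 TPM. Tmsb4x was thus higher in both libraries but by an uneven margin, with log2 ratios over Tmsb10 of 1.49 and 0.85, a mean of 1.17 ± 0.45. Both mRNAs are short enough for the length correction to matter: Tmsb10 has a gene length of 571 bases but an effective length, the length that fragments can start in, of 291 in replicate 1. Dividing by full length in place of effective length gave a log2 ratio of 1.49, at least 2-fold in both libraries. The whole coding sequences are shown because the 2 proteins are so small that 135 bases, stop codon included, hold each of them; 40 bases, in capitals, differ, an identity of 70.4% (GRCm38, minus strand, each span holding an intron, chrX:167207501-167208036 and chr6:72957618-72958012).
Tmsb4x: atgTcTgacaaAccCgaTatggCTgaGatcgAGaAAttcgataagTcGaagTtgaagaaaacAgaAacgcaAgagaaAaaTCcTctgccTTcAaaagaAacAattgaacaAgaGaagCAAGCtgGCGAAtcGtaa
Tmsb10: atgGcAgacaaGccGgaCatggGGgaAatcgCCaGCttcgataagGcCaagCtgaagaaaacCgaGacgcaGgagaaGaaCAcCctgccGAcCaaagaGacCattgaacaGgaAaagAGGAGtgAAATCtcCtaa

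Profilins recharge actin monomers with ATP and pass them to growing ends. Pfn2, the form best known from brain, stood at 117 and 92.1 TPM in replicates 1 and 2, and Pfn1, the widespread form, at 93.5 and 89.3 TPM. Their log2 ratio, Pfn2 over Pfn1, was 0.18 ± 0.20, no larger than its spread. It was larger with less correction for length, 0.51 with full length in place of effective length and 1.58, past 2-fold in both libraries, without division by length. Their coding sequences are 61.5% identical. Cyclase-associated proteins strip monomers from cofilin. Cap1 stood at 30.96 and 28.9 TPM, and Cap2, best known from muscle, at 4.06 and 3.49 TPM, a log2 ratio of Cap2 over Cap1 of -2.96 ± 0.079. Cap1 shares 129 exonic bases with Ppt1 on the opposite strand, whose counts were 35.3% and 28.5% of its own. Of 6 further monomer binders, 4 were detected, Twf2 and Twf1, the twinfilins, at 13.6 ± 0.9899 and 7.54 ± 1.499 TPM and Tmsb15b2 at 4.87 ± 2.88. Pfn3, a testis profilin, and Tmsb15a had 0 counts in both libraries, which allows up to 3 counts, or 0.06505 CPM (counts scaled to a common library total) in replicate 1 and 0.0417 in replicate 2.

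Among the severing proteins, Cfl1 was far above its relatives. Cfl1, cofilin-1, the non-muscle form, was nearly equal in the libraries at 316 and 313 TPM and took rank 3 of the 47. Dstn, or actin depolymerising factor, stood at 60.5 and 44.8 TPM in replicates 1 and 2, and Cfl2, the muscle cofilin, at 28.2 and 20.8 TPM. Cfl1 held 80.4% ± 3.24 of the family, with a log2 ratio over Dstn of 2.59 ± 0.30 and over Cfl2 of 3.69 ± 0.30. The opposite-strand gene Snx32, which shares 468 exonic bases with Cfl1, had 7.25% and 6.57% as many counts.
Limk1 encodes the LIM kinase that switches cofilin off by phosphorylation, and stood at 15.5 and 14.03 TPM in replicates 1 and 2. Its relative Limk2 was higher, at 52.98 ± 0.262 TPM, a log2 ratio of Limk1 over Limk2 of -1.84 ± 0.096. That margin shrank to -1.05 on protein-coding transcripts alone, where it no longer reached 2-fold in both libraries. Of 6 further genes of cofilin control, 5 were detected, with Tesk1, a related kinase, at 31.8 ± 2.57 TPM and the Slingshot phosphatase Ssh2, which switches cofilin on, at 9.21 ± 1.803. Tesk2 stayed below 1 TPM at 0.54 and 0.14 TPM.

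All 4 membrane proteins of the growth cone were among the 16 highest of the 47. They are anchored to the inner face of the membrane by lipids, bind calmodulin or phosphoinositides and are substrates of protein kinase C. Marcksl1, MARCKS-like protein 1, stood at 326 and 291 TPM in replicates 1 and 2. Basp1, formerly CAP-23, stood at 252 and 263 TPM, and was 1 of 2 genes, with Abi1, whose TPM was higher in replicate 2. Gap43, the growth-associated protein, stood at 235 and 160.4 TPM, a wider gap than for the other 3. Marcks stood at 114 and 89.5 TPM. Marcksl1 exceeded Marcks by a log2 ratio of 1.61 ± 0.13, at least 2-fold in both libraries, but only per unit of length: Marcks has a transcript of 4048 bases against 1605 for Marcksl1, and without division by length the log2 ratio was 0.10. Gap43 and Basp1 differed by -0.41 ± 0.43 (Gap43 over Basp1), lower for Gap43 in both libraries and by less than 2-fold in each. Of the 4, Marcksl1 held 35.7% ± 0.708 of the summed TPM, Basp1 29.98% ± 3.91, Gap43 22.6% ± 3.8 and Marcks 11.7% ± 0.821. All 6 other growth cone genes listed were detected, led by the microtubule regulators Stmn2 at 76.8 ± 21.7 TPM and Dclk1 at 58.8 ± 12.7, then Gprin1 at 33.4 ± 3.07.

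The CRMP family formed a steep ladder with the same order in both libraries. These cytosolic proteins bind tubulin and actin and relay semaphorin signals that collapse growth cones. Dpysl2, or CRMP2, stood at 309.7 and 263 TPM in replicates 1 and 2, Dpysl3, or CRMP4, at 289.7 and 227 TPM, and Crmp1 at 164 and 137 TPM. Dpysl5, or CRMP5, stood at 78.1 and 60.98 TPM, and Dpysl4, or CRMP3, at 36.6 and 32.9 TPM. The top steps were close, with a log2 ratio of Dpysl3 over Dpysl2 of -0.15 ± 0.081. Crmp1 over Dpysl2 was -0.93 ± 0.014, just short of 2-fold (-1.58, past it, without division by length), while Dpysl5 over Dpysl2 was -2.05 ± 0.085 and Dpysl4 over Dpysl2 -3.04 ± 0.061. Of the family's summed TPM, Dpysl2 held 35.9% ± 0.838, Dpysl3 32.2% ± 1.07, Crmp1 18.8% ± 0.255, Dpysl5 8.68% ± 0.311 and Dpysl4 4.37% ± 0.286.

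For 3 CRMP genes the annotation holds alternative first coding exons, which give a protein with a short or a long amino end, and both forms were present. Transcript shares are the authors' estimates, in percent of the gene's TPM. The short form Crmp1-201 carried 57.95% and 50.7% of Crmp1 in replicates 1 and 2, and the long form Crmp1-202 42.05% and 49.3%. In Dpysl3 the long form Dpysl3-204 led with 58.6% and 56.6%, against 36.3% and 34.7% for the short form Dpysl3-201. In Dpysl4 the form with the longer first exon, Dpysl4-202, carried 52.1% and 63.5%, and Dpysl4-201 27.9% and 21.6%. The longer exon lies downstream of the short one in Dpysl4 but upstream of it in Crmp1 and Dpysl3. Dpysl4-202 has 1779 coding bases, against 1716 for Dpysl4-201. The form with the longer first exon thus led in Dpysl3 and Dpysl4 in both libraries, and the short form led in Crmp1, narrowly in replicate 2. By estimated count that lead turned in replicate 2, where Crmp1-202 had 26564 and Crmp1-201 25920.5. The starts are shown for Crmp1 and Dpysl4 because they are where the forms part; capitals mark the coding bases that the other form lacks. The short exons have 39 coding bases, and of the long exons, with 381 bases in Crmp1 and 102 in Dpysl4, the first 60 are shown (GRCm38, plus strand, capitals at chr5:37246058-37246096, chr5:37242145-37242204, chr7:139086123-139086161 and chr7:139089408-139089467).
Crmp1-201: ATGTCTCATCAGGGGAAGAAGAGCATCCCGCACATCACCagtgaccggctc
Crmp1-202: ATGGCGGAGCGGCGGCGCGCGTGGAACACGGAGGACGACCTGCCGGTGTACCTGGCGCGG
Dpysl4-201: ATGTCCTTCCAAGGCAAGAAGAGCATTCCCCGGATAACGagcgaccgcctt
Dpysl4-202: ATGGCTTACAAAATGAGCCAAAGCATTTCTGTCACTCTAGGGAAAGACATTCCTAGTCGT

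Among the filament binders, Fscn1 and Dbn1 stood well above Cttn and Ablim1 in both libraries. Fscn1, fascin, which bundles the filaments of filopodia, was almost equal in the libraries at 115 and 114 TPM. Dbn1, drebrin, which binds along filaments and links them to microtubules, stood at 106 and 93.5 TPM in replicates 1 and 2. Cttn, cortactin, which stabilises Arp2/3 branches, stood at 31.9 and 24.1 TPM, and Ablim1, an actin-binding LIM protein of axon guidance, at 22.2 and 14.9 TPM. Fscn1 and Cttn stood far above their relatives with a narrower known site: Fscn2, of retina and ear, had 0 and 6 counts in replicates 1 and 2, and Hcls1, the cortactin of blood cells, averaged 0.45 ± 0.0283 TPM. Dbn1 exceeded the drebrin-like Dbnl by a log2 ratio of 2.54 ± 0.12. Ablim3, a relative of Ablim1, averaged 29.8 ± 3.96 TPM, with Ablim1 at 18.6 ± 5.22. Of 15 further filament binders 10 were detected, led by Coro1c, a coronin, at 33.5 and 57.5 TPM and Lasp1 at 46.1 and 37.8 TPM; Fscn3 and the microvillus protein Vil1 also stayed below 1 TPM, at 0.04 and 0 TPM and 0.17 and 0.07 TPM.

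Drebrin transcripts were mostly of the embryonic kind. Drebrin A, the adult neuronal form in rodents, carries an inserted stretch that the embryonic form, drebrin E, lacks; of the annotated transcripts only Dbn1-201 holds such an insert, of 138 coding bases. Dbn1-201 carried 4.23% and 5.67% of Dbn1 TPM in replicates 1 and 2. The 2 transcripts that span the site without it, Dbn1-203 and Dbn1-202, together carried 85.2% and 86.9%, and the rest fell on transcripts whose coding sequence does not span it. By estimated count, Dbn1-201 had 964 and 2106, against 17047 and 28301 for those 2. The insert is shown in capitals within 12 flanking bases on each side, because it separates the forms (GRCm38, minus strand, chr13:55476636-55476773).
Dbn1-201: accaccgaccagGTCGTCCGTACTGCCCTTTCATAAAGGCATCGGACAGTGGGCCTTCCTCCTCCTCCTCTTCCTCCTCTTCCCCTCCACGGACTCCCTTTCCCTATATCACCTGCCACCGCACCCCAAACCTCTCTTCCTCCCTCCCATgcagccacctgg

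In cortactin the minor form was the one with the extra repeat. The middle of cortactin is a row of near-identical repeats that bind filaments, and Cttn-202 contains an exon of 111 coding bases that Cttn-201 skips. Cttn-201 carried 66.7% and 75.6% of Cttn TPM in replicates 1 and 2, and Cttn-202 18.8% and 19.04%. The share of Cttn-202 was nearly the same in the libraries, while that of Cttn-201 moved with a fragment of 336 bases, Cttn-203, at 14.02% and 0%. The exon is shown in capitals between 12 bases on each side (GRCm38, minus strand, chr7:144450978-144451088).
Cttn-202: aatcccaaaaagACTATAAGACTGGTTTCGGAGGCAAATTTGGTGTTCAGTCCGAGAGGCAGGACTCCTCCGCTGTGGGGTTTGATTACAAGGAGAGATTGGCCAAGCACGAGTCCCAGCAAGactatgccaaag

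Ena/VASP proteins sit at filament tips and speed their growth, and Evl led the family of 3. Evl stood at 38.4 and 31.4 TPM in replicates 1 and 2, Enah, or Mena, at 17.9 and 14.3 TPM, and Vasp at 10.8 and 10.4 TPM. By length-corrected level Evl held 56.6% ± 0.8398 of the family and exceeded Vasp by a log2 ratio of 1.70 ± 0.16, while Enah over Evl was -1.11 ± 0.026. The order of Enah and Evl turned round without division by length, to 0.70 in favour of Enah, whose leading transcript is 11229 bases long against 1870 for that of Evl. Enah is known for a long insert in its neuronal form. Of its annotated transcripts, 4 hold the 732-base stretch that is missing from the leading Enah-211, and together they carried 28.9% and 41.5% of Enah TPM, against 44.8% and 36.7% for the 4 that span the site without it. Which kind was higher by TPM share therefore differed between the libraries. By estimated count the transcripts without the stretch were higher in both, at 6581 and 8071 against 1194 and 2618 in replicates 1 and 2. Evl was carried by Evl-203 at 66.3% ± 2.04 and Evl-202 at 29.6% ± 4.64, with 1197 and 1179 coding bases.

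The WAVE complex joins 5 subunits, a WAVE protein, CYFIP, NAP, ABI and BRK1, each from 1 or more genes. Summed over paralogs, WAVE proteins were the lowest subunit by TPM and ABI proteins the highest. Wasf3 stood at 10.6 and 8.71 TPM in replicates 1 and 2, Wasf1 at 6.48 and 5.21 TPM and Wasf2 at 4.17 and 3.36 TPM. The order Wasf3, Wasf1, Wasf2 held in both libraries, and Wasf3 exceeded Wasf2 by a log2 ratio of 1.33 ± 0.019. Wasf1 over Wasf3 was -0.71 ± 0.023 and Wasf1 over Wasf2 0.62 ± 0.0042, each under 2-fold. These steps depended on the measure: without division by length Wasf1 over Wasf2 turned to -0.11 and Wasf1 over Wasf3 reached -1.32, and with partial transcripts left out Wasf1 over Wasf2 was 1.02, the last 2 past 2-fold in both libraries. The deposited credibility bounds cover read assignment within a library. Wasf2 had the widest of the 47, and no other of the 47 had bounds wider than 50% of its TPM. For Wasf2 they ran from 4.104 to 37.98 TPM in replicate 1 and from 2.92 to 13.5 in replicate 2. Those upper bounds exceed the TPM of Wasf3 and Wasf1 in both libraries. The place of Wasf2 in the order, and of WAVE as the lowest subunit, is therefore uncertain within those bounds.
Cyfip2, which with CYFIP1 holds WAVE inactive until Rac binds, stood at 30.1 and 24.4 TPM in replicates 1 and 2 and Cyfip1 at 8.99 and 8.07 TPM, a log2 ratio of Cyfip2 over Cyfip1 of 1.66 ± 0.10. Cyfip1 shares 1316 exonic bases with Nipa2 on the opposite strand, whose count was 62.8% and 45.8% of its own, and whether the authors' counting used strand is not given in the sources used here. Nckap1, or NAP1, stood at 35.03 and 24.9 TPM, far above its blood-cell relative Nckap1l at 0.96 and 0.77 TPM.
Abi2 stood at 64.7 and 49.4 TPM in replicates 1 and 2 and Abi1 at 32.9 and 37.9 TPM, and Abi2 was higher in both libraries, by a log2 ratio of 0.68 ± 0.42. Short noncoding transcripts held a large share of Abi1 TPM. Its highest transcript by TPM was Abi1-214, a retained-intron fragment of 503 bases, at 25.3% and 40.7% of the gene's TPM on 142 and 487 counts. On protein-coding transcripts alone Abi1 stood at 21.2 and 18.03 TPM, and Abi2 over Abi1 was 1.49, at least 2-fold in both libraries. Pdss1, which shares 194 exonic bases with Abi1 on the opposite strand, had 13.7% and 8.43% as many counts. Abi3, the remaining ABI gene, stood at 0.22 and 0.2 TPM.
Summed over paralogs the WAVE proteins reached 19.2 ± 2.79 TPM, NAP 30.8 ± 7.297, CYFIP 35.8 ± 4.62, the single-gene subunit Brk1 42.05 ± 5.42 and ABI 92.6 ± 7.297 (75.5 ± 12.2 on protein-coding transcripts alone). WAVE remained lowest and ABI highest on protein-coding transcripts alone. By estimated count, not divided by length, WAVE was not the lowest. Brk1 had 2857 and 4402 counts in replicates 1 and 2, fewer than Wasf3 alone, with 2995 and 4586. Outside the complex, Wasl, the N-WASP that Cdc42 activates, stood at 5.25 and 3.81 TPM, with a log2 ratio of Wasf1 over Wasl of 0.37 ± 0.10. Washc1, of the endosomal WASH complex, averaged 4.89 ± 0.106 TPM, and Was, the WASP of blood cells, 0.115 ± 0.00707.

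The Arp2/3 complex has 7 subunits, and Actr2 was the lowest of them by TPM in both libraries, though not by estimated count. Estimated counts, not divided by length, were 4140 and 6038 for Actr2 in replicates 1 and 2. Arpc2 had 3444 and 4446, and Arpc3 1630 and 3026. Of the 4 genes in the set, Actr3, or ARP3, stood at 52.5 and 37.05 TPM in replicates 1 and 2, Arpc2 at 39.1 and 27.3 TPM, Arpc1a at 32.1 and 27.1 TPM and Actr2, or ARP2, at 16.4 and 12.9 TPM. ARP2 and ARP3 together mimic the end of a filament from which the branch grows, and the complex holds 1 of each. Actr3 over Actr2 was 1.59 ± 0.11 on the log2 scale, at least 2-fold in both libraries, and 0.98 without division by length. Arpc2, of the structural core, and Arpc1a lay close, with a log2 ratio of Arpc2 over Arpc1a of 0.15 ± 0.20. Summed over paralogs the other subunits lay between 33.2 TPM for Arpc2 and 48.98 for Actr3 with Actr3b, against 14.7 ± 2.49 for Actr2. The 6 other subunit genes were all detected, with Arpc4 at 38.7 ± 2.69 TPM, Arpc5 at 37.6 ± 9.43 and Arpc3 at 34.5 ± 0.0354. Of Arpc4, only 10.8 ± 4.596 TPM lay on protein-coding transcripts, below Actr2 at 14.2 ± 2.35 on the same measure. Arpc1a exceeded Arpc1b by a log2 ratio of 2.59 ± 0.026. Arpc2 was carried by Arpc2-203 at 70% ± 0.651 and Arpc2-201 at 30% ± 0.651, which both have 900 coding bases.

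**Figure D2:**
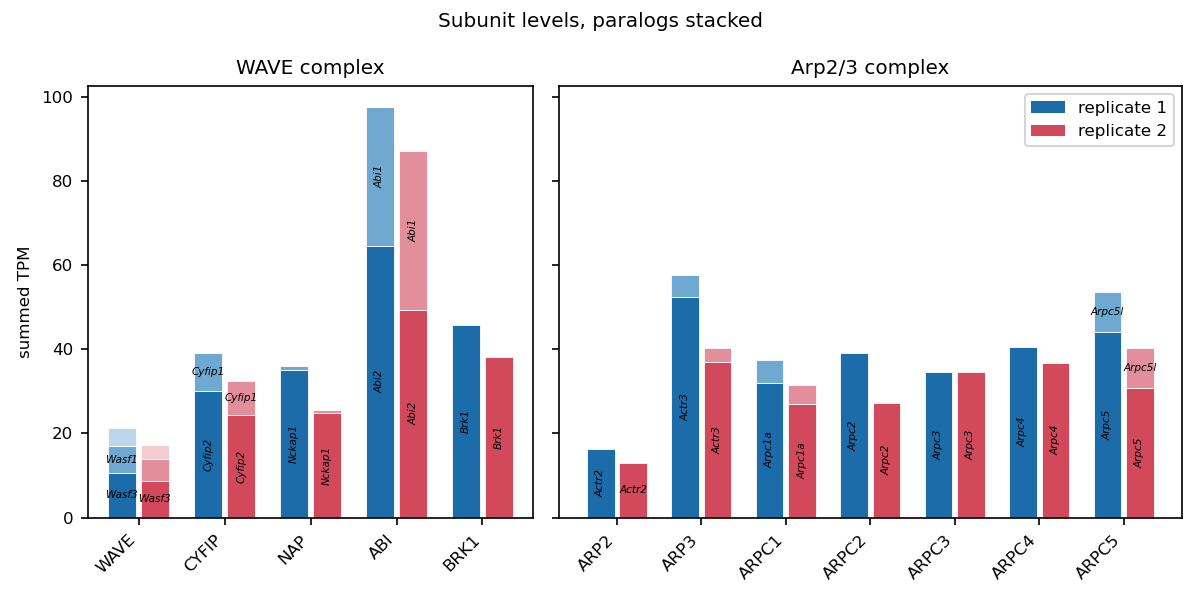
Summed TPM of each subunit of the WAVE complex (left) and the Arp2/3 complex (right) in replicate 1 (blue bars) and replicate 2 (red bars), with paralogs stacked and bars starting at 0. WAVE proteins (Wasf3 at the bottom, then Wasf1 and, unlabelled on top, Wasf2) form the lowest bars on the left and Actr2 the lowest on the right, while ABI stands highest.

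Rac3, not Rac1, was the leading Rac gene. Rac GTPases switch on WAVE and PAK at the leading edge; Rac1 is the widespread form and Rac3 is known mainly from the nervous system. Rac3 stood at 163 and 145 TPM in replicates 1 and 2, and Rac1 at 35.1 and 30.4 TPM. Rac3 thus held 82.5% ± 0.244 of their summed TPM, a log2 ratio of Rac3 over Rac1 of 2.23 ± 0.024. The ratio is smaller before division by length: the gene lengths are 1061 bases for Rac3 and 2310.1 for Rac1 in replicate 1, the counts were 9784 and 15768 against 5473 and 8768, and without division by length the log2 ratio was 0.84. Rac1 also shares 2309 exonic bases with Daglb on the opposite strand, whose counts were 29.7% and 30.6% of its own. The coding sequences of Rac3 and Rac1 are 76.9% identical over 579 bases, and share no stretch as long as a read at 95% identity or more. Rac2, of blood cells, stood at 0.57 and 0.31 TPM.
The Rac1 splice form Rac1b, known to cycle fast between its states, carries an insert of 57 coding bases. Its transcript Rac1-202 had 0 counts in both libraries, which allows up to 3 counts in each, and Rac1-201, without the insert, carried 99.7% and 100% of the gene. The insert, shown in capitals because it marks the form with no counts, lies at chr5:143509597-143509653 (GRCm38, minus strand).
Rac1-202: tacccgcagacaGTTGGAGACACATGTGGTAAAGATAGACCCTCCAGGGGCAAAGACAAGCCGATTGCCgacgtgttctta

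Cdc42, which drives filopodia, was expressed as 2 forms in nearly equal parts. The gene stood at 145 and 106.9 TPM in replicates 1 and 2, a log2 ratio of Cdc42 over Rac1 of 1.93 ± 0.16. Its alternative last coding exons give a protein of the same length with a different tail: the widespread form is prenylated, while the tail of the brain form can also be palmitoylated. Cdc42-202, with the tail of the widespread form, carried 50.7% and 53.1% of Cdc42 TPM in replicates 1 and 2. Cdc42-201, with the tail of the brain form, carried 49.3% and 46.9%. The 2 forms lay within a few percentage points of each other in both libraries. The last coding exons, 90 bases with the stop codon, are shown because they alone separate the forms; 31 bases, in capitals, differ, most of them near the end (GRCm38, minus strand, chr4:137321103-137321192 and chr4:137322530-137322619).
Cdc42-202: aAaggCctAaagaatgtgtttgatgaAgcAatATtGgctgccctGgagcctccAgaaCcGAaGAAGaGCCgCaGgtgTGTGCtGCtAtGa
Cdc42-201: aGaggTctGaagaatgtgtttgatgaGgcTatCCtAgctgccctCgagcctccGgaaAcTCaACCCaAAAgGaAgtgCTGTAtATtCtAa

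The product of Rhoa drives contraction and growth cone retreat, and Rhob belongs to the same GTPase family. Rhob stood at 63.4 and 59.1 TPM in replicates 1 and 2 and Rhoa at 26.5 and 22.02 TPM. Rhob, an inducible form found on endosomes, exceeded Rhoa by a log2 ratio of 1.34 ± 0.12, at least 2-fold in both libraries. Rhoa in turn exceeded Rhoc, at 7.62 and 9.13 TPM, by 1.52 ± 0.37. Tcta, which shares 32 exonic bases with Rhoa on the opposite strand, had 26.8% and 29.7% as many counts as Rhoa. Of 10 further genes of this GTPase family 9 were detected, led by the neuronal Rnd2 at 18.6 ± 2.78 TPM and by Rnd3 at 14.3 ± 2.02.

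PAK kinases act under Rac and Cdc42 and phosphorylate LIM kinase, and which of them led depended on how Pak3 transcripts were counted. Pak3, X-linked and known mainly from brain, stood at 77.8 and 63.8 TPM in replicates 1 and 2 and Pak1 at 35.1 and 27.4 TPM, a log2 ratio of Pak3 over Pak1 of 1.18 ± 0.05. Of the TPM of Pak3, however, 54.2% and 65.7% lay on 3 partial transcripts with less than 50% of the longest coding sequence. Those transcripts took 5.36% and 7.72% of the counts. The leading one, Pak3-209, is 716 bases long and carried 41.7% and 41.7% of the TPM, against 39.8% and 29.1% for the 8135-base Pak3-210. With partial transcripts left out of both genes, Pak3 stood at 35.6 and 21.9 TPM and Pak1 at 34.97 and 27.4, so that Pak3 was just above Pak1 in replicate 1 and below it in replicate 2. The mean log2 ratio, -0.15, is turned round from that on whole genes. Pak1 exceeded Pak2, the widespread form, by 2.10 ± 0.052. All 8 further kinases of the pathway were detected, led by the Cdc42-binding Cdc42bpa at 23.6 ± 5.35 TPM, Pak6 at 22.4 ± 0.643 and Cdc42bpb at 21.5 ± 1.19.

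Over all 47 genes, the leading transcript was the same in both libraries for 45 genes, and 23 had a leading transcript with at least 90% of the gene's TPM in both. The leading transcript was protein coding in 46 genes, all but Abi1. It differed between the libraries in Cap1, led by Cap1-202 in replicate 1 (33.4% and 27.7% in replicates 1 and 2) and by Cap1-201 in replicate 2 (15.4% and 33.6%), which have equal coding lengths of 1422 bases. It also differed in Cyfip1, led by Cyfip1-201 in replicate 1 (54.3% and 35.8%) and by Cyfip1-202 in replicate 2 (28.9% and 46.8%), with 3759 and 3753 coding bases. Abi2 was split between Abi2-201 at 32.95% ± 0.311, Abi2-207 at 26.8% ± 2.74 and Abi2-203 at 23.8% ± 1.51. Wasf2 was led by Wasf2-201 at 74.8% ± 2.31, and its second transcript was a different one in each library.

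**Figure D3:**
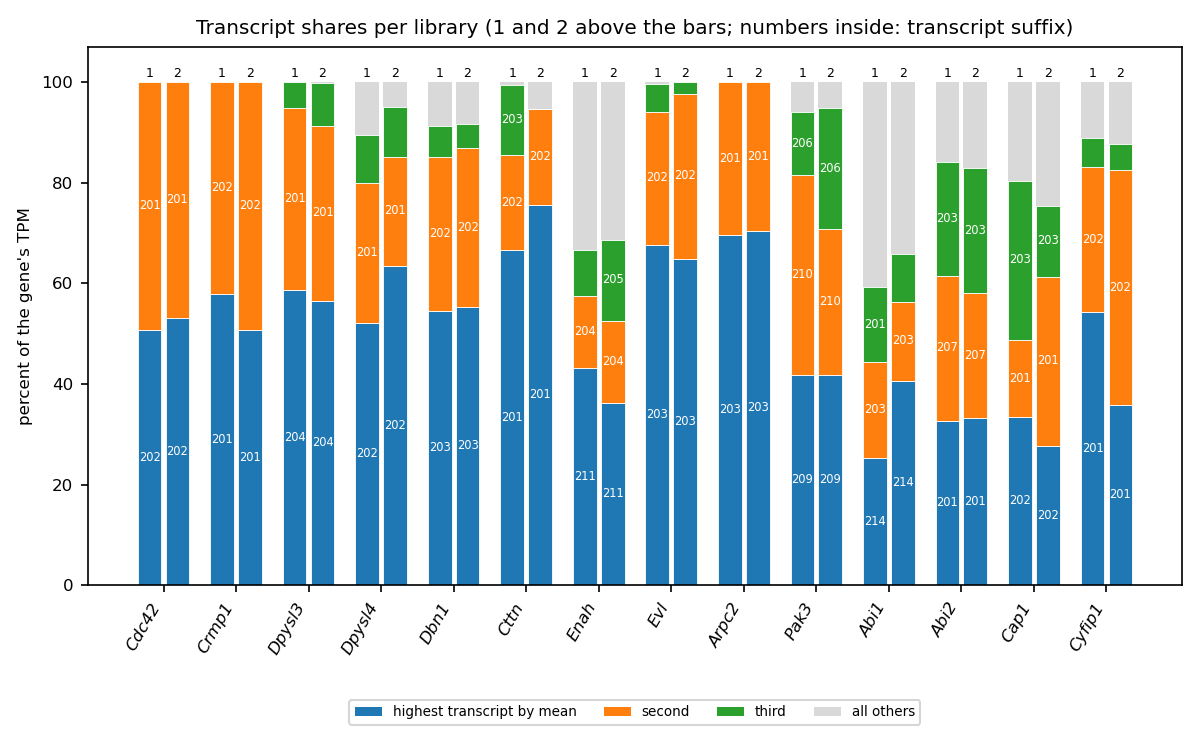
Percent of each gene's TPM carried by its 3 highest transcripts by mean share and by all others (grey), as stacked bars from 0 to 100% for replicate 1 (left bar) and replicate 2 (right bar) of 14 genes. Cdc42 is split almost evenly in both libraries and Crmp1 in replicate 2, Dbn1 is carried by Dbn1-203 and Dbn1-202, and Cap1 and Cyfip1 have different leading transcripts in the 2 libraries.

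Ratios between related genes are taken within a library, so no scaling between libraries enters them. Of 27 pairs in which both genes belong to the 47, 15 were 2-fold or more apart in the same direction in each library, and the SD of the log2 ratio reached at most 0.4495, in Tmsb4x over Tmsb10. In 14 further pairs a gene of the 47 was set against a relative outside it, and 12 of these were called by the same rule, among them Actg1 over Actg2 (10.21 ± 0.32), Nckap1 over Nckap1l (4.95 ± 0.15), Cttn over Hcls1 (5.66 ± 0.21) and Rac1 over Rac2 (5.97 ± 0.35). Since the second genes are near 0, these ratios depend on the pseudocount: with 1 TPM in place of 0.1 they were 8.62, 4.04, 4.31 and 4.55 in the same order, still past 2-fold. All 41 pairs had the same sign in both libraries. In 11 of 14 families or pairs of paralogs, a single gene held at least 50% of the summed TPM in both libraries; the exceptions were the membrane proteins, the CRMP genes and the WAVE genes, where Wasf3 held 49.8% in replicate 1 and 50.4% in replicate 2.

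**Figure D4:**
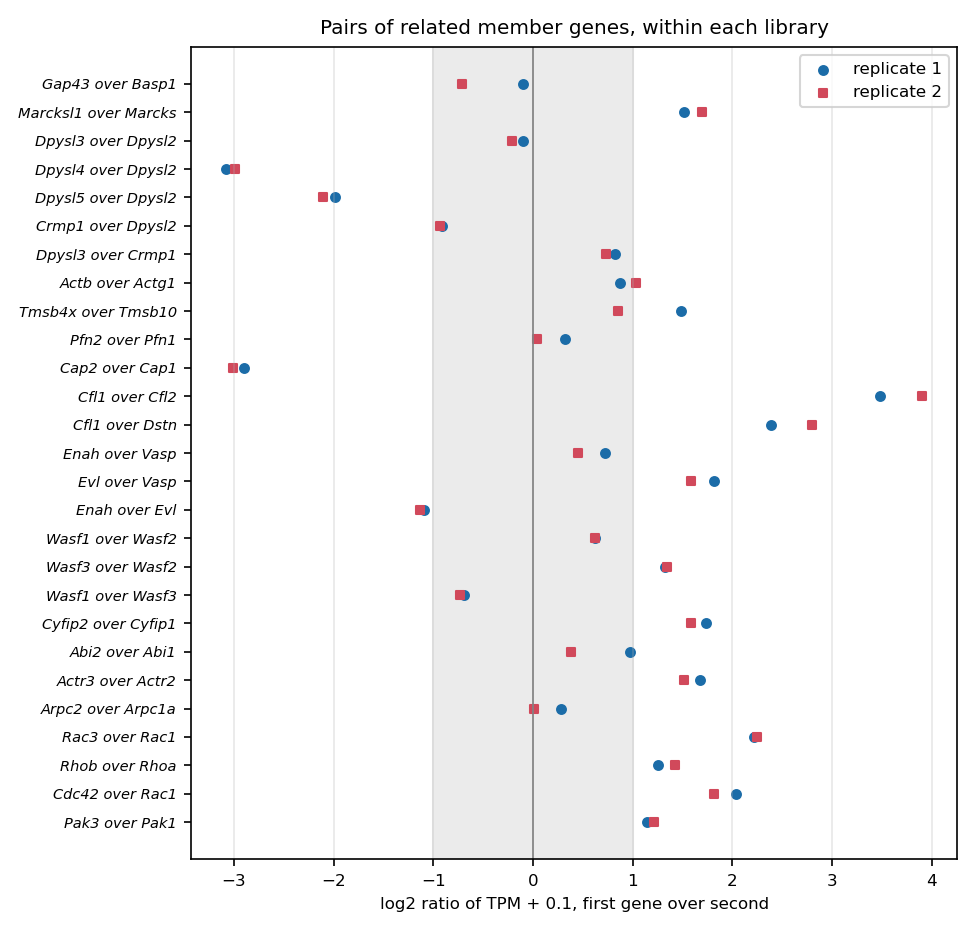
Log2 ratio of TPM + 0.1, first gene over second, for the 27 pairs within the 47 genes, in replicate 1 (circles) and replicate 2 (squares); the grey band marks ratios under 2-fold. Cfl1 over Cfl2 lies furthest right, Dpysl4 over Dpysl2 and Cap2 over Cap1 furthest left, and the 2 libraries are furthest apart for Tmsb4x over Tmsb10.

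Between the libraries, none of the 47 genes differed by 2-fold, and none by 1.5-fold, after scaling of the counts, against 13.5% past 2-fold among 17574 genes whose counts sum to 20 or more. No share over all genes was taken at 1.5-fold. The smallest summed count among the 47 was 2246, far above the minimum for the share at 2-fold, which is therefore not a matched background. The median absolute log2 ratio was 0.103 over the 47, 0.165 over the 7734 genes with at least that count and 0.1899 over detected protein-coding genes. Of the 47, 24 were higher and 23 lower in replicate 2. Replicate 2 was highest relative to replicate 1 for Basp1 at a log2 ratio of 0.34, Vasp at 0.33 and Cfl1 at 0.27, and lowest for Pak3 at -0.40, Tmsb4x at -0.39 and Gap43 at -0.27. Marker lists are given beside these on the same scaled measure. Of the 5 young neuron genes 2 were higher in replicate 2, with log2 ratios from -0.49 for Dcx to 0.20 for Elavl3. Of 4 vessel genes 1 was higher, from -0.32 for Kdr to 0.015 for Pecam1, and of 6 microglia genes 5 were higher, from -0.19 for C1qb to 1.33 for the low-count Aif1. In unscaled TPM, whose median over detected genes was lower in replicate 2, the lists summed to 1060.3 and 896 for young neurons, 52.3 and 35.6 for vessels and 49.2 and 43.3 for microglia in replicates 1 and 2. Their part in the differences was not tested.

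**Figure D5:**
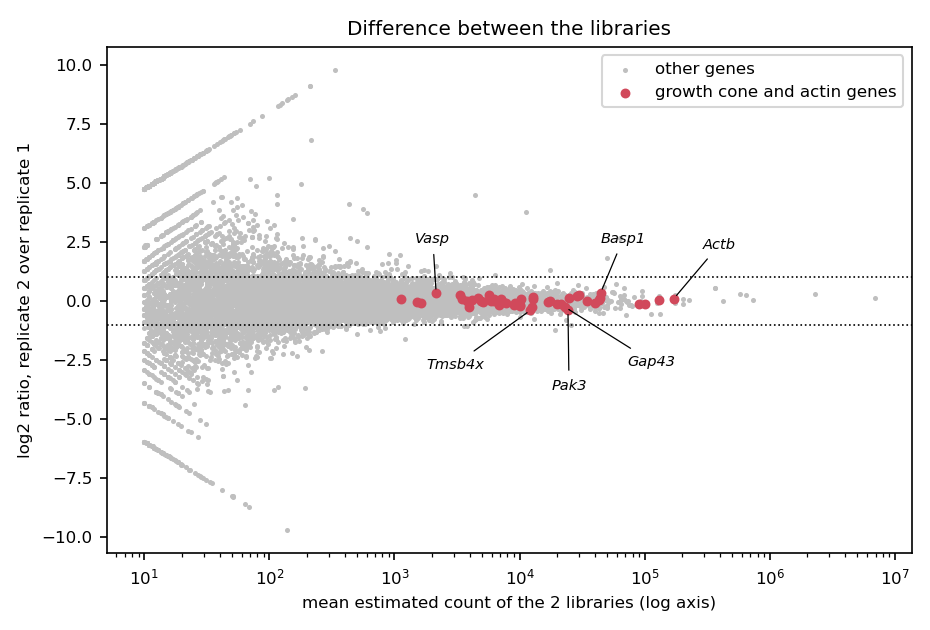
Log2 ratio of replicate 2 over replicate 1 after TMM scaling against the mean estimated count (log axis), for 17574 genes (grey) with the 47 growth cone and actin genes in red; dotted lines mark 2-fold. The 47 lie between -0.40 and 0.34, inside the dotted lines, and at mean counts above 1000.

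Around the 47 genes, 113 other genes of actin regulation in 14 classes were measured, 90 of them detected, with a median of 6.79 TPM. All genes were detected among the myosins, led by non-muscle myosin Myh10 at 42.5 ± 3.88 TPM and Myo5a at 28.6 ± 7.86, then Myo6 at 11.2 ± 4.27. Of 7 capping genes 6 were detected, led by the neuronal tropomodulin Tmod2 at 35.8 ± 8.87 TPM, Capza2 at 30.97 ± 8.41 and Capza1 at 21.6 ± 3.01, while Tmod1 stood at 0.09 and 0.1 TPM. Of 4 tropomyosins 3 were detected, Tpm3 at 40.5 ± 10.2 TPM, Tpm1 at 27.1 ± 6.11 and Tpm4 at 19.1 ± 5.69, and the muscle form Tpm2 stood at 0.31 and 0.57 TPM. Formins, which grow unbranched filaments, were lower: 8 of 12 were detected, led by Daam1 at 15.4 ± 2.67 TPM, Fmnl2 at 10.8 ± 3.83 and Fhod3 at 7.27 ± 1.27, with Diaph3, Fmn1 and Inf2 below 1 TPM at 0.3 ± 0.0424, 0.17 ± 0.0283 and 0.53 ± 0.0283. Of 17 exchange factors and GTPase-activating proteins of these GTPases 15 were detected, led by Arhgap35 at 33.3 ± 6.23 TPM, Kalrn at 26.3 ± 6.51 and Trio at 18.6 ± 2.43, while Tiam2 stood at 0.8 ± 0.0141.
In all, 20 of the 113 stayed below 1 TPM in both libraries. Several of these are forms known from blood cells and microglia, Nckap1l, Was, Hcls1, Rac2 and Vav1 (0.32 and 0.5 TPM), and beside them 5 of 6 microglia markers were detected, led by C1qc at 13.99 ± 0.891 TPM. Between the libraries 5 of the 113 passed 2-fold, Tpm2, Acta2, Actc1, Tesk2 and Tmsb15b2, of which none averaged above 5 TPM. Pdxp, a cofilin phosphatase, was not analysed here.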

How the data were processed

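Whole midbrain of newborn mice was measured by stranded, paired reads of 101 bases from RNA over 200 nucleotides after ribosomal RNA depletion, per the labels. The authors deposited estimated counts, TPM, FPKM and, for each transcript, its percent of the gene, on mm10 with GENCODE M4, per the notes deposited with the samples; the sources used here do not give aligner, quantifier or versions. The deposited credibility bounds of TPM (a score) and the effective lengths were used as given; effective length was a median of 280.2 bases below length in replicate 1. Symbols, transcript names, coordinates and sequences came from GENCODE M21 on GRCm38, matching 42462 of 43346 genes and all 47 listed.

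A gene was detected at 1 TPM in both libraries. Related genes were compared as log2 ratios of TPM + 0.1 within each library, called at 2-fold the same way in both. Between the libraries, expected counts were rounded and scaled by TMM (edgeR 4.0.16; DESeq2 1.42.0 size factors as an alternative), with a prior count of 0.5 and a summed count of at least 20, after a check on simulated data. Near-identical copies were searched with blastn 2.17.0. With 1 group no test was possible, and floors of 3 counts cover counting error only. All 47 genes are described by role; other pathway genes are named where highest in their class (up to 3), below 1 TPM in both libraries or in a pair; transcripts are named where the second reaches 20% in both libraries or the leading one differs or is noncoding; and forms with a known coding difference (Cttn, Enah, Rac1) and the single marker genes were named after their values were seen. The genes, lists and pairs were chosen with earlier results of these data known. A few genes of these lists are not reported here.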

Additional observations from a re-analysis of the deposited data

How the results depend on the processing

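Levels and ratios rest on division by transcript length. Without it, the median rank of the 47 genes was percentile 92.2 in place of 93.8, and their share of protein-coding counts 2.40% in place of 2.71% of TPM. Without the filter on low values the median rank was percentile 95.4. Other pathway genes detected numbered 42 at a threshold of 10 TPM, against 90 at 1 TPM, which the higher threshold itself brings about. Of the 47, 45 were detected at 5 TPM and 42 at 10 TPM, and 47 under the other settings run. Pairs called ranged from 27 to 31 over settings and reached 34 at 1.5-fold. The ratio of Enah over Evl reversed to 0.70 without division by length, where Enah led its family with 54.9%, and that of Pak3 over Pak1 reversed to -0.15 with partial transcripts left out; that alternative and the use of full length were chosen after seeing the data. Calls lost without division by length were Marcksl1 over Marcks, Actr3 over Actr2, Rac3 over Rac1 and Enah over Evl, and Enah over Evl was also lost with full length (-0.96). Calls gained without division by length were Crmp1 over Dpysl2 (-1.58), Dpysl3 over Crmp1 (1.23), Tmsb4x over Tmsb10 (1.92), Pfn2 over Pfn1 (1.58), Enah over Vasp (2.27), Wasf1 over Wasf3 (-1.32) and Abi2 over Abi1 (1.88), beside 1 pair not named here; Wasf1 over Wasf2 (-0.11) changed sign. No gene of the 47 passed 2-fold between the libraries under any scaling, or 1.5-fold under TMM.

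Leaving out a library left the median at 37.9 to 52.5 TPM, the median rank at percentile 92.9 to 94.5, the share at 2.67% to 2.76%, detection of the 47 at 47 and of other pathway genes at 90 to 93, pairs called at 28 to 29, and families led by a gene with 50% or more at 11 to 12. The leading transcript was shared in 43 genes by count and 45 on protein-coding transcripts alone. No paired analysis was possible because there is a single group.

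Of the 47 genes, 6 have near-identical copies elsewhere, which held at most 3.72% of the gene's count, for Actg1 in replicate 2. Opposite-strand genes that share exons held 5% or more of the count in both libraries for 6 genes, Cyfip1, Cap1, Rac1, Rhoa, Abi1 and Cfl1. Each SD rests on 2 pools.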

Other observations

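Several of the 47 genes share a chromosome. The share of all genes on each chromosome was not taken. Chromosome 5 holds 8 of the 47, of which Actb and Fscn1, among the 13 highest, are 53.6 kb apart and Actb and Rac1 597 kb apart. On chromosome 11, Actg1 and Rac3 are 373 kb apart, and Fscn2, with 0 and 6 counts in replicates 1 and 2, lies 12.99 kb from Actg1, which had 75549.8 and 106177 counts (GRCm38 annotation).

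The forms of Cdc42 were nearly equal by length-corrected level but not by estimated count: Cdc42-202 had 10299 and 14736 and Cdc42-201 6402 and 8302, with annotated lengths of 2108 and 1448 bases (replicates 1 and 2). In Dpysl3 the long form held 67779 and 94879 counts, against 14734 and 20421 for the short form, a wider margin than by TPM share.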
